A study of Boehmeria nivea with 10 samples.

Results

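A set of 150 contigs whose level was highest in late-stage water roots of ramie was described, out of 40300 contigs listed in the series. Ramie (Boehmeria nivea), a relative of the nettles, is grown for the long fibres of its stem, and a contig is a stretch of transcript assembled from reads without a genome. The members were chosen by their FPKM values, that is, fragments counted per contig and scaled to contig length and library size. A contig had to carry an identifier starting with Unigene (not grouped with related contigs by the assembly), and an expected count of at least 10 in each of 9 libraries. Its mean in early hydroponic roots divided by its mean in terrestrial roots had to lie between 1/1.4 and 1.4. Of 13171 contigs that met the first conditions, 4077 lay in that band. These were ranked by the lowest FPKM of the 3 late hydroponic libraries divided by the highest FPKM of the 6 early hydroponic and terrestrial libraries, called here the separation, and the first 150 were taken.

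Late hydroponic roots were water-grown roots of 30-day-old seedlings (3 libraries), early hydroponic roots were water-grown roots of 5-day-old seedlings (3 libraries), and terrestrial roots came from 30-day-old seedlings in soil (3 libraries). Late and terrestrial roots thus shared the stated age and differed in the medium, whereas late and early roots shared the medium and differed in age. A pooled sample of the assembly was not used here. The labels name no variety, culture solution or sampling scheme. Nothing in them ties a library to a plant, so the spread within a group may be partly technical. The listed expected counts summed to between 9499903 and 11522430 per library.

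Oxygen moves far more slowly through water than through air, so roots in still water can run short of it. As background, many plants form new adventitious roots under these conditions, build gas-filled tissue (aerenchyma) in the cortex, and shift sugar breakdown towards fermentation. Whether the culture water was aerated is not stated in the labels. The tables pair no contig with a gene name or a description and no sequence of the contigs was used here, so none of these processes could be assigned to a member, and root marker genes could not be checked.

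Because all 9 libraries entered the choice, every difference between late hydroponic roots and the other groups is given below as a description. In whole roots, fewer cells of a type and less RNA per cell cannot be told apart.

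The peak was modest in most members and large in a few. The separation was 7.72 in the first member, 2.29 at rank 10, 1.58 at rank 50 and 1.34 at rank 100. In 18 of the 150 members the lowest late library lay at least 2 times above the highest of the other 6, and in 87 the separation was under 1.5. By means, the late level was a median of 2.16 times the early one (range 1.31 to 18.3) and a median of 2.38 times the terrestrial one (range 1.31 to 15.5). Late means reached at least 2 times the early mean in 87 members and at least 2 times the terrestrial mean in 95, with 83 members in both counts. At 3 times or more, 27 members were in both counts, and at 5 times or more, 6.

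Unigene24182_mixA, a contig of 879 bases, headed the ranking. It stood at 80.5, 66.4 and 111.75 FPKM in late hydroponic replicates 1, 2 and 3, at 3.61, 7.58 and 6.54 FPKM in the early hydroponic ones and at 6.59, 8.61 and 2.10 FPKM in the terrestrial ones. Late libraries were high without exception, while the early and terrestrial ranges overlapped. Its late mean was 14.6 times the early mean and 14.95 times the terrestrial mean.

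Unigene5139_mixA, of 1332 bases, was second and had the highest ratio of late to early means among the members, at 18.3. Its late libraries read 18.8, 44.4 and 18.4 FPKM, its early ones 0.99, 2.22 and 1.24 FPKM and its terrestrial ones 2.78, 0.99 and 1.5 FPKM. Late replicate 2 stood above the other late libraries, which were close to each other. None of its 9 expected counts was whole, so its reads were partly shared with other contigs and its level rests on how the authors' counting divided them.

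Unigene23372_mixA, a short contig of 243 bases, stood at 200.7, 143.7 and 124.5 FPKM in late hydroponic libraries, at 29.1, 15.3 and 23.8 FPKM in early ones and at 26.5, 27.1 and 31.1 FPKM in terrestrial ones. Unigene3232_mixA, of 913 bases, stood at 235.0, 297.7 and 168.3 FPKM in late libraries, at 31.2, 40.5 and 29.7 FPKM in early ones and at 39.7, 45.4 and 44.9 FPKM in terrestrial ones. The late means of these contigs were 6.88 and 6.91 times the early means and 5.54 and 5.39 times the terrestrial means. The counts of Unigene3232_mixA were again not whole in any library, while those of Unigene23372_mixA were whole in all 9.

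Unigene31297_mixA, of 3107 bases and next by rank, was the most uneven member within the late group. Its late libraries read 39.1, 11.6 and 9.23 FPKM, against 1.84, 2.25 and 2.15 FPKM in early and 1.75, 2.36 and 2.66 FPKM in terrestrial libraries. Replicate 1 alone set the late mean well above the other late values, yet even replicate 3 lay 3.47 times above the highest terrestrial library.

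**Figure D1:**
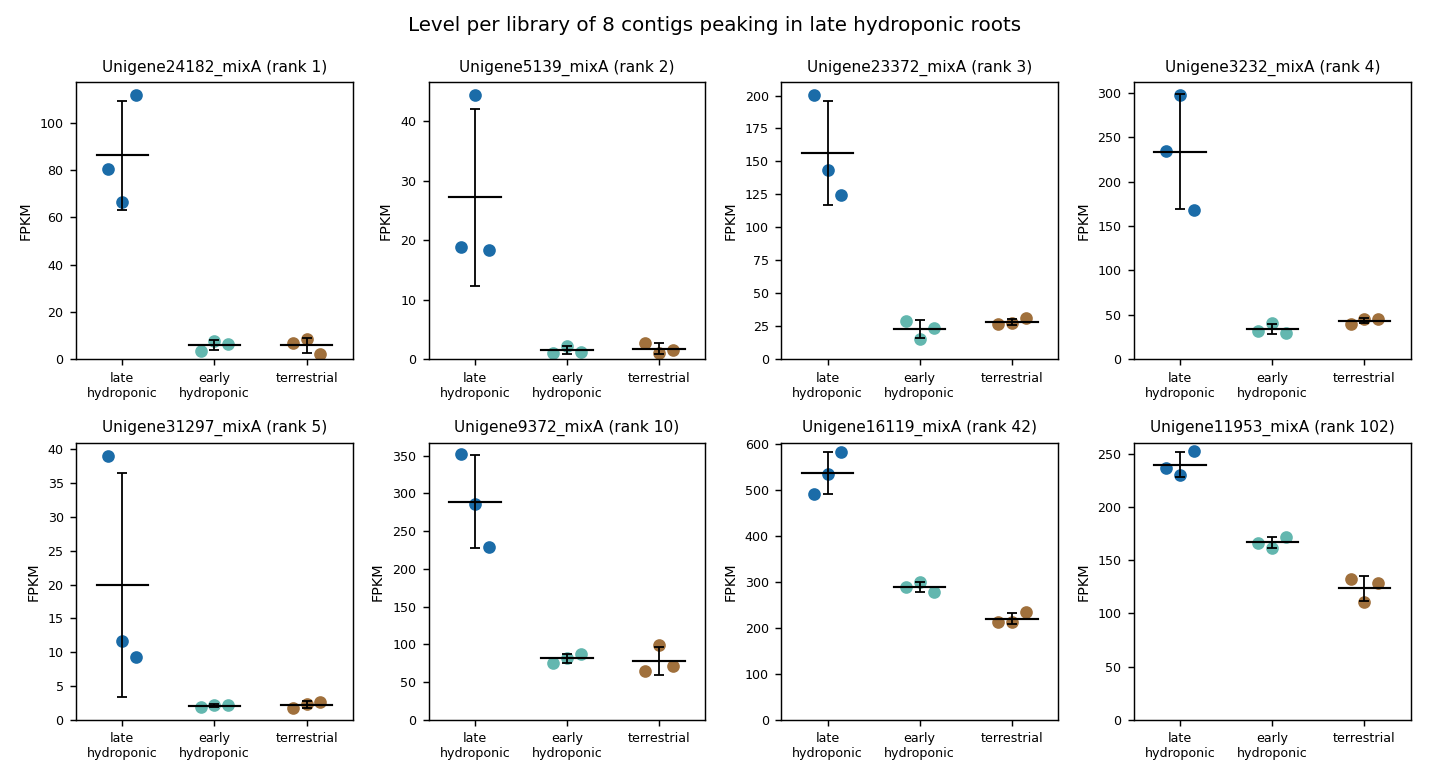
FPKM of each library (points) in late hydroponic, early hydroponic and terrestrial roots for the first 5 members by rank and for 3 further members with the highest late means, with the group mean (bar) and SD (error bar, n = 3). Late points lie above the other 6 in each panel, as the choice requires, by 7.72 times in Unigene24182_mixA and by 1.33 times in Unigene11953_mixA.

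Expression levels of the members spanned more than the size of their peaks. Mean late FPKM ranged from 3.22 to 535.4 with a median of 24.6, against medians of 10.8 in early hydroponic and 10.1 in terrestrial roots. Late means were under 10 FPKM in 16 members, from 10 to under 30 in 71, from 30 to under 100 in 51 and at 100 or more in 12. The ratio of late to early means had a median of 2.10, 2.13, 2.12 and 2.58 in these classes from low to high. The classes are cut by the late level, which is also the numerator of the ratio and part of the choice, so nothing is read from their order.

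The most abundant member, Unigene16119_mixA of 1538 bases, had a moderate peak. It stood at 490.9, 533.1 and 582.2 FPKM in late hydroponic libraries, at 287.9, 300.3 and 278.5 FPKM in early ones and at 211.3, 213.2 and 233.7 FPKM in terrestrial ones. The 3 groups did not overlap in this contig, and its early level lay between the other groups. Its counts, too, were not whole in any library.

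Unigene9372_mixA, of 1063 bases, stood at 352.1, 286.5 and 228.7 FPKM in late libraries, at 75.7, 81.5 and 86.6 FPKM in early ones and at 64.2, 99.7 and 70.8 FPKM in terrestrial ones. Unigene11953_mixA, of 1657 bases, stood at 236.9, 229.8 and 252.8 FPKM in late libraries, at 166.4, 161.7 and 172.1 FPKM in early ones and at 132.0, 110.3 and 128.4 FPKM in terrestrial ones. Early and terrestrial libraries overlapped in the first of these contigs and were apart in the second.

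Together the 150 members took 0.981, 0.853 and 0.766% of the listed counts in late hydroponic replicates 1, 2 and 3. They took 0.385, 0.390 and 0.393% in the early libraries and 0.349, 0.366 and 0.374% in the terrestrial ones. The group means were 0.867 ± 0.108% late, 0.389 ± 0.00371% early and 0.363 ± 0.0128% terrestrial (SD, n = 3 each). The late libraries lay apart from the other 6 and were also the least alike among themselves. The 5 most abundant members held 22.7 to 27.2% of the members' counts in late libraries, 25.3 to 26.2% in early ones and 22.2 to 22.9% in terrestrial ones, so no single contig carried the sum.

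**Figure D2:**
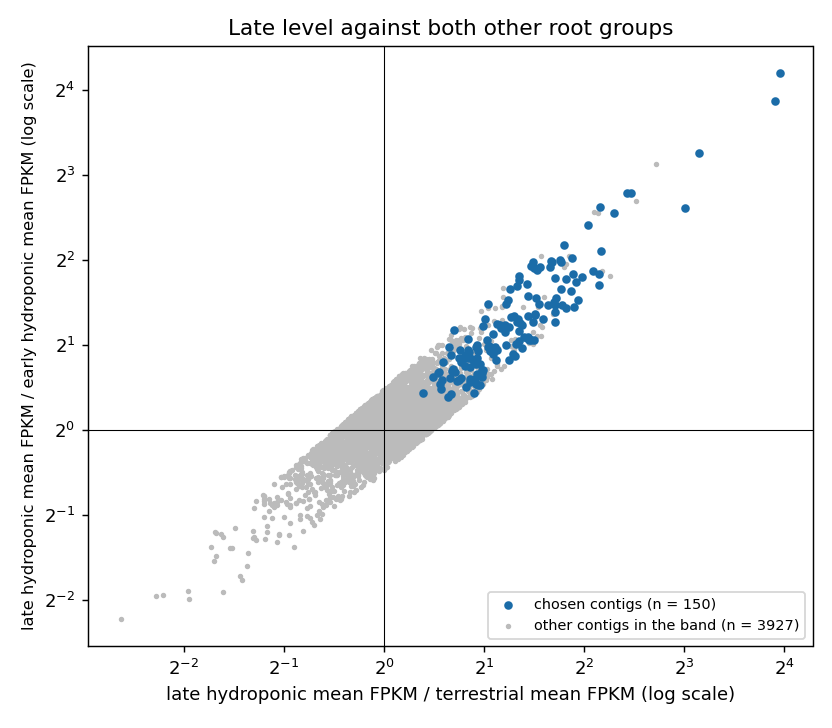
Ratio of late to early hydroponic mean FPKM (y axis) against the ratio of late hydroponic to terrestrial mean FPKM (x axis), both on log scales, for the 150 chosen contigs (blue) and the 3927 other contigs in the band (grey). Points run along a diagonal because the band holds early and terrestrial means within 1.4 times of each other. Chosen contigs lie in its upper right, from about 1.31 in both ratios upwards. Other contigs lie there too, 38 of them with both ratios of 2 or more.

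Over all 4077 contigs in the band, the late mean was a median of 1.07 times the early and 1.06 times the terrestrial mean, and 1902 contigs had both ratios above 1. In 561 of them (13.8%) all 3 late libraries lay above all 6 others. A further 38 contigs had late means at least 2 times both other means but were not taken, since their lowest late or highest other library gave too small a separation.

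The 3 late libraries did not contribute alike to the members. Late replicate 1 was the highest of the late libraries in 82 members (54.7%), replicate 2 in 46 and replicate 3 in 22 (14.7%). Among all contigs in the band, replicate 1 was highest in 29.3% and replicate 3 in 31.7%. Replicate 3 was the lowest late library in 91 members (60.7%), against 37.4% of contigs in the band. The order replicate 1, then 2, then 3 was found in 60 members (40%), against 18.5% of contigs in the band. Since replicates have no order, this describes the libraries and not a course in time.

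Late replicate 3 had a median of 0.855 times the mean of the other late libraries over the members and 0.982 times over the band. Of the late libraries, replicate 3 also lay nearest to both other groups on the second principal component. That component covers all contigs with the count minimum and holds 14.3% of their variance. Late replicate 3 scored 19.91 there, against 62.17 and 45.42 in late replicates 1 and 2. Early libraries scored from -35.34 to -28.00 and terrestrial ones from -18.28 to -0.61, nearer to late replicate 3. On the first component, with 71.9% of the variance, late replicates 1, 2 and 3 scored -28.03, -26.71 and -47.16. There replicate 3 was the late library nearest to the early ones (-71.64 to -65.05) but farthest from the terrestrial ones (90.18 to 117.85). With late replicate 3 left out of the choice, 102 of the 150 contigs were chosen again, and the separation at rank 150 was 1.48 in place of 1.23. Without late replicate 1 these values were 123 and 1.30, without late replicate 2 125 and 1.29, and without terrestrial replicate 2 107 and 1.29. A contig's separation cannot fall when a library is left out, since it uses the lowest late and highest other value, so a rise is built in.

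**Figure D3:**
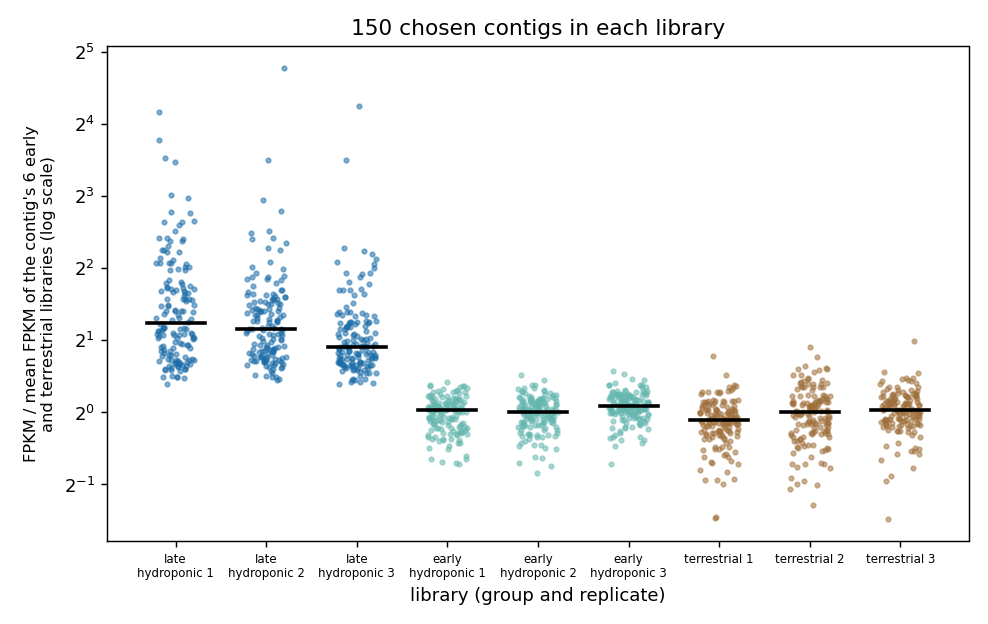
FPKM of each of the 150 chosen contigs in each of the 9 libraries, divided by the contig's mean over its 6 early and terrestrial libraries (log scale), with the median of each library as a black bar. Medians were 2.36, 2.23 and 1.88 in late hydroponic replicates 1, 2 and 3 and between 0.928 and 1.06 in the other libraries.

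Spread between replicates was wider in the late group. The coefficient of variation (CV, the SD as a percentage of the mean) had a median over the members of 19.98% in late hydroponic, 11.5% in early hydroponic and 17.4% in terrestrial roots. Over the band these medians were 12.9, 10.3 and 11.5%. The highest late library was over 2 times the lowest in 28 members and over 3 times in 7. In 46 members the late CV was under 10%.

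Unigene33109_mixA, of 3030 bases, was the second most uneven member by late CV (74.0%). It stood at 15.3, 5.20 and 4.28 FPKM in late libraries, at 2.88, 2.08 and 3 FPKM in early ones and at 1.95, 1.69 and 3.14 FPKM in terrestrial ones. As in Unigene31297_mixA, late replicate 1 was far above replicates 2 and 3. Of the 10 members with the widest late range, the highest library was replicate 1 in 9, and the exception was Unigene30648_mixA, with 6.82, 9.29 and 3.08 FPKM, a contig looked up after these values were seen.

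Other members were almost level among the late libraries. Unigene23549_mixA, of 1260 bases, read 18.3, 18.4 and 18.2 FPKM in late hydroponic libraries (CV 0.657%), against 8.42, 9.12 and 10.2 FPKM in early and 8.11, 7.65 and 10.8 FPKM in terrestrial ones. Unigene10055_mixA, of 2700 bases, read 29.2, 29.2 and 28.8 FPKM in late libraries (CV 0.775%), against 17.5, 17.1 and 15.7 FPKM in early and 15.8, 15.4 and 19.8 FPKM in terrestrial ones. In both, the early and terrestrial libraries overlapped, and their late means were 1.98 and 1.74 times the early means.

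The base level outside late roots was close in both other groups, as the band requires. The ratio of early to terrestrial means ranged from 0.716 to 1.38 with a median of 1.04, and it was above 1 in 87 members and below 1 in 63. Early and terrestrial libraries overlapped in 124 members (82.7%), against 66.2% of the contigs in the band. In the remaining 26, all early libraries lay above all terrestrial ones in 20 and below them in 6. Over the whole series, 61.1% of contigs tested were called different between these groups by edgeR's test, described further on.

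The likeness of early and terrestrial levels depended on the scale. With TMM scaling, which weighs down strongly changed contigs when libraries are brought to a common size, the members' median log2 difference between early hydroponic and terrestrial roots was 0.29, against -0.09 for all contigs tested. With library totals alone, as FPKM uses, these medians were 0.06 and -0.32. The band, set on FPKM, holds the members' early and terrestrial levels close, so nothing is read from their gap to all contigs. On the TMM scale the members' median log2 difference was 0.97 for late against early hydroponic roots and 1.34 for late hydroponic against terrestrial roots, where all contigs had 0.04 and 0.02. The members thus stood nearer to early than to terrestrial levels on that scale, and 101 of the 150 were chosen again when TMM-scaled counts per kilobase took the place of FPKM.

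All contigs were also tested between groups by edgeR's quasi-likelihood test on rounded expected counts, with an adjusted p under 0.05 taken as a call. Of 26747 contigs tested, 8.37% were called higher in late than in early hydroponic roots and 28.7% were called higher in late hydroponic than in terrestrial roots. Among the members 104 and 150 were called in these comparisons. The members were chosen on the same libraries, so these counts only say how many had a difference that was large against the pooled spread. The count of 104 was 59 and 56 without late replicates 1 and 2 and 45, 53 and 54 without early replicates 1, 2 and 3. Calls over all contigs fell in the same fits, from 2238 of 26747 to between 947 and 1218 of 27985 to 28110 tested. The members' count was 98 without late replicate 3 and 82, 120 and 80 without terrestrial replicates 1, 2 and 3. Over all contigs these fits called 2656 of 28238, 1688 of 27745, 2671 of 27929 and 1807 of 27860. In early hydroponic against terrestrial roots 28 members were called, against 61.1% of all contigs tested, and all 28 were higher in early roots. The band keeps such differences small, and nothing is read from that count. It was 18 without terrestrial replicate 1, 7 by limma on log2(FPKM + 1) and 9 when edgeR scaled by library totals only (8 higher, 1 lower). Over all contigs these fits called 7787 of 27745, 6969 of 26747 and 6780 of 26747 higher, and 7055, 10336 and 10132 lower.

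The 46 members without a call in late against early roots had a median late to early ratio of 1.79, against 2.44 in the 104 with a call, and 2 of them ranked among the first 50. The first by rank was Unigene13925_mixA, of 687 bases, a low contig. It stood at 3.33, 3.15 and 3.18 FPKM in late libraries, at 1.82, 1.96 and 1.70 FPKM in early ones and at 1.96, 1.55 and 1.72 FPKM in terrestrial ones. Its lowest count was 11, and a count of 10 carries a 95% exact Poisson interval of 4.795 to 18.4, which covers counting error only.

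Unigene23778_mixA, of 532 bases, was the next. It stood at 53.3, 19.8 and 18.4 FPKM in late libraries, at 9.55, 4.98 and 11.1 FPKM in early ones and at 4.41, 11.7 and 4.50 FPKM in terrestrial ones. Unigene14537_mixA, of 609 bases, stood at 74.8, 27.5 and 21.5 FPKM in late libraries, at 12.3, 11.6 and 14.1 FPKM in early ones and at 6.2, 8.5 and 13.3 FPKM in terrestrial ones. Here the late means were over 3 times the early ones, and the spread among late libraries was wide, with replicate 1 far above the others. Late against early, the fitted log2 differences were 0.67 ± 0.25 in Unigene13925_mixA, 1.70 ± 0.57 in Unigene23778_mixA and 1.57 ± 0.48 in Unigene14537_mixA (SE).

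At the edge of the choice, members and non-members were alike. Unigene11751_mixA, of 475 bases and last but one by rank, stood at 400.1, 134.2 and 147.9 FPKM in late libraries, at 108.9, 106.8 and 104.1 FPKM in early ones and at 94.7, 58.2 and 98.8 FPKM in terrestrial ones, a separation of 1.233. Unigene1987_mixA, of 380 bases and rank 150, stood at 67.6, 72.1 and 72.9 FPKM in late libraries, at 34.7, 55.0 and 52.4 FPKM in early ones and at 44.0, 42.0 and 40.6 FPKM in terrestrial ones, a separation of 1.229. Late replicate 1 was far above the other late libraries in the first of these, and the late libraries were close together in the second.

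Just outside, Unigene16789_mixA stood at 31.2, 24.3 and 28.7 FPKM in late libraries, at 18.2, 17.5 and 15 FPKM in early ones and at 17.4, 12.1 and 19.8 FPKM in terrestrial ones, also a separation of 1.229. Unigene5292_mixA stood at 112.6, 109.8 and 120.8 FPKM in late libraries, at 78.1, 81.9 and 85.7 FPKM in early ones and at 79.6, 82.9 and 89.5 FPKM in terrestrial ones, a separation of 1.226. The number 150 is therefore a limit of the list and not a gap in the data.

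The conditions of the choice left out more contigs with a separation as wide as the members' than they kept. Over the whole series 1706 contigs had a separation of at least that of rank 150 or were listed in the late libraries alone. Of these, 353 belonged to assembly clusters, and 41 of the 353 met the count minimum and the band. Another 1041 were Unigene contigs with a count under 10 in at least 1 library, with a median length of 348 bases. Among them 418 had at least 10 counts in each late library, and 120 of the 418 separated late roots more widely than the first member did. In 42 of the 418 all 6 other libraries were at 0 or did not list the contig. A further 162 met the count minimum but lay outside the band, 118 with early above terrestrial levels and 44 with early below. The members are therefore contigs with a measurable base level in every library. Contigs with a wider separation but a count under 10 in at least 1 library are outside the list. Whether their separation exceeds counting error was not tested.

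In length and in shared reads, which the choice did not use, the members lay close to the band. Their lengths ran from 205 to 5199 bases with a median of 1224, against 1399 for the band and 1342 for the 13171 contigs with the count minimum. The share under 500 bases was 10% of members and 11.5% of the band. Counts were whole in all 9 libraries, within 0.005, in 138 members (92%), against 86.7% of the band, and whole counts need no read to have been divided between contigs. The other 12 members include Unigene5139_mixA, Unigene3232_mixA and Unigene16119_mixA, whose levels depend on that division.

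The shortest member, Unigene27368_mixA of 205 bases, stood at 26.9, 23.1 and 20.7 FPKM in late libraries, at 5.01, 8.59 and 10.6 FPKM in early ones and at 5.40, 10.4 and 8.83 FPKM in terrestrial ones, and its counts were as low as 10. The longest, Unigene1035_mixA of 5199 bases, stood at 48.9, 42.3 and 27.7 FPKM in late libraries, at 15.1, 12.8 and 12.1 FPKM in early ones and at 12.9, 16.6 and 14.3 FPKM in terrestrial ones, with at least 734 counts in each library. Both had late replicate 1 highest and replicate 3 lowest.

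Some members carried consecutive numbers in the assembly, and these were looked at after their values were seen. There were 4 pairs of members whose numbers differ by 1, in 3 runs. Over all Unigene contigs with the count minimum, pairs that differ by 1 had a median Pearson correlation of 0.0862 across the 9 libraries (n = 8264 pairs), and pairs that differ by 100 one of 0.0763 (n = 5255 pairs), so a close number does not in general mean a like profile.

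In Unigene3232_mixA and Unigene3233_mixA, ranked 4 and 6, late replicate 2 was the highest library, at 297.7 and 127.6 FPKM. The counts of both were not whole in any library, so their levels depend on how shared reads were divided. Whether they share reads with each other was not tested. In Unigene23956_mixA and Unigene23955_mixA late replicate 3 was the highest, at 61.9 and 56.4 FPKM against 39.4 to 42.0 and 36.9 to 40.2 FPKM in the other late libraries. Unigene19518_mixA, Unigene19519_mixA and Unigene19520_mixA all had late replicate 1 highest, and the first of these was at 151.7, 130.7 and 72.7 FPKM and the second at 149.1, 113.7 and 72.1 FPKM in late replicates 1, 2 and 3. Unigene19518_mixA and Unigene19519_mixA were 912 and 913 bases long. Whether contigs of a run come from 1 gene was not tested, so the members may stand for fewer than 150 genes.

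The same choice with the groups exchanged gave other separations. With early hydroponic roots as the high group and late and terrestrial means within the band, 464 of 5149 contigs (9.01%) had all 3 early libraries above the other 6. There the separation was 2.79 at rank 1 and 1.21 at rank 150. With terrestrial roots as the high group and early and late hydroponic means within the band, 2912 of 8648 contigs (33.7%) had all terrestrial libraries above the others, with a separation of 18.0 at rank 1 and 2.84 at rank 150. The first 150 contigs had a median separation of 1.43 with late, 1.36 with early and 3.48 with terrestrial roots as the high group. A separation of 2 or more was found in 18, 4 and 435 contigs. The median CV within the high group was 19.98% for the late, 6.98% for the early and 13.7% for the terrestrial list. These lists were each chosen for their own high group, and the differences between them were not tested.

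**Figure D4:**
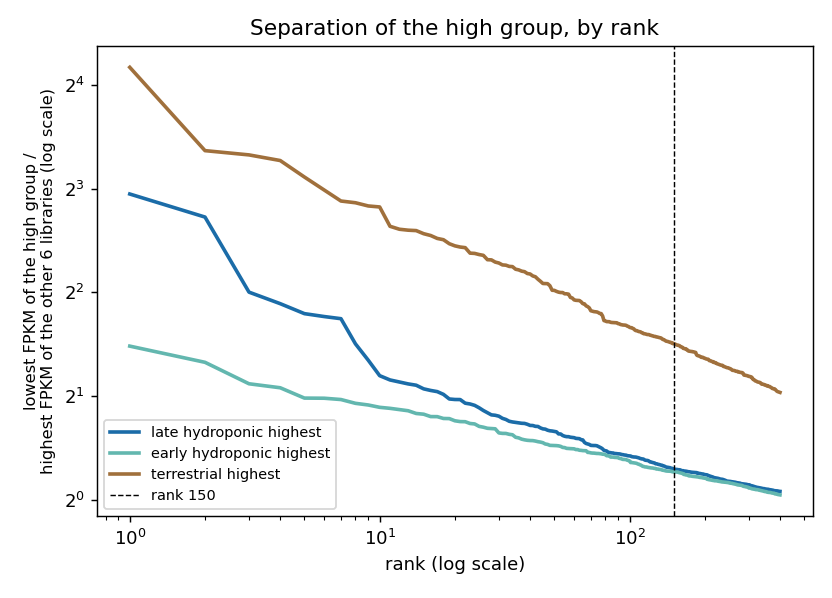
Separation (lowest FPKM of the high group over the highest FPKM of the other 6 libraries, log scale) by rank (log scale) when late hydroponic, early hydroponic or terrestrial roots are the high group. At rank 150 (dashed line) the curves stand at 1.23, 1.21 and 2.84, and the late curve leaves the early one mainly among its first members.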

How the data were processed

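Ramie root RNA was measured in 9 libraries of 3 groups, taken from the labels. The authors deposited, per the file headers, an expected count and an FPKM value for each contig of a de novo assembly. The deposited FPKM divides the expected counts by a length that the values place about 36.5 bases under the listed one. The aligner, the counting program and their versions are not given in the sources used here. Expected counts were rounded to whole numbers, filtered with filterByExpr (26747 of 40300 contigs kept) and fitted in edgeR 4.0.16 (R 4.3.3) with TMM scaling and robust quasi-likelihood dispersions, all 3 groups together and no block. Adjusted p-values are Benjamini-Hochberg over all contigs tested. SE values are the log2 difference over the square root of the F statistic. Alternatives used DESeq2 1.42.0 and limma 3.58.1 on log2(FPKM + 1) and log2(FPKM + 0.1). The fit was run on simulated counts with the same dispersion for all contigs and changes in late libraries only. That checks the code and not the calls made here. Contigs not listed in a library were entered as 0, which touches no member.

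Libraries of a group were no copies of each other (chi-square per degree of freedom 8.01 to 36.4). Members, lists and the rule for named contigs were chosen with earlier results of these data known. Named were the first 5 by rank, the next 3 by late FPKM, the longest and shortest, the most and least even, those at the limit of the list and the first 3 without a call. No pathway list was tested, since no identifier has a gene name.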

Additional observations from a re-analysis of the deposited data

How the results depend on the processing

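Leaving out 1 library at a time moved the members called higher in late than in early hydroponic roots from 104 to between 45 and 120, and it was 59 and 56 without late replicates 1 and 2 and 45, 53 and 54 without early replicates 1, 2 and 3. Over all contigs tested these calls ran from 947 of 28110 (without early replicate 1) to 2671 of 27929 (without terrestrial replicate 2), against 2238 of 26747. The cause was not tested, though each of these fits has fewer samples. Late against early, 129 members were called with library totals alone, 135 with limma on log2(FPKM + 1) and 128 with limma on log2(FPKM + 0.1). Over all contigs these calls were 3249, 3441 and 3332 of 26747. With DESeq2's library scaling in edgeR, DESeq2 itself and no filter, 100, 117 and 87 members were called. There, all contigs gave 2044 of 26747, 2891 of 33954 and 2073 of 40285. Members called higher in late hydroponic than in terrestrial roots numbered 146 to 150 in the leave-out fits. They numbered 147 to 150 with other tools, scalings or no filter. Over all contigs tested these calls ran from 6791 of 27745 to 7676 of 28045 in the leave-out fits. With other tools, scalings or no filter they ran from 7051 of 26747 to 8384 of 40285. Members called in early hydroponic against terrestrial roots were 28, with 18 to 38 when 1 library was left out (18 without terrestrial replicate 1), 9 with library totals alone, 7 with limma on log2(FPKM + 1) and 8 with limma on log2(FPKM + 0.1), all of which scale libraries by their totals.

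The list itself depended on its settings. Between 102 (without late replicate 3) and 131 (without early replicate 1) of the 150 were chosen again when a library was left out, 94 when ranked by the ratio of means and 101 to 139 under the other settings. Under all 17 settings 33 contigs stayed in the list. Named contigs, including those just outside the list, were followed under all fits but those without a filter and by limma on log2(FPKM + 0.1). None of their log2 differences in late against early or late against terrestrial roots changed sign there. In each of these contigs every late library lay above all early and terrestrial ones in FPKM, which is how they were ranked. Leaving out a library cannot reverse that order, so the unchanged sign was largely built in and nothing is read from it. In early against terrestrial roots the direction depended on the scale, with 122 members higher in early roots on the TMM scale and 87 by FPKM means. Late against early 18 calls were lost and 16 gained over the named contigs and the settings followed for them, and late against terrestrial 1 was lost. With the replicate number as a replicate block, 79 members were called higher late against early and 25 either way early against terrestrial. In late against terrestrial roots all but 1 were. Over all contigs that fit called 1736 of 26747 higher late against early and 7356 late against terrestrial. Early against terrestrial it called 7876 higher and 8043 lower. Same-numbered libraries of different groups correlated by -0.27 to 0.17 in their deviations from the group means, and different-numbered ones by -0.28 to 0.24. In late against early hydroponic roots alone, these ranges were 0.04 to 0.12 and -0.11 to -0.003. With 3 libraries per group, whether the numbers pair libraries cannot be told from these values.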
